A study of Rattus norvegicus with 372 samples.

Results

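Doxorubicin at 2 µM was compared with vehicle in primary rat hepatocytes by 2 versions of the TempO-Seq assay, in which 2 detector oligos are ligated where they meet on a transcript, and the ligated product is amplified and counted by sequencing. The wells were those whose labels give doxorubicin and 2 µM, and every vehicle well of the same batch was their control. This gave 12 doxorubicin libraries out of 372 in the series, made of 3 wells in each of 2 batches, each read by the ST assay (2654 probes, the S1500+ gene set) and the WT assay (22253 probes). Hepatocytes of male Wistar rats were cultured between collagen layers (collagen sandwich) and exposed for 24 h, as for all 14 chemicals of the study, each given at 2 concentrations. Each batch came from 1 rat, with its own library preparation and sequencing, so that wells within a batch are technical replicates and only the 2 batches are biological ones. Both the doxorubicin and the vehicle wells held 0.5% DMSO. Vehicle had 3 wells in batch 1, all on the plate of the doxorubicin wells, and 6 wells in batch 2, of which 3 shared the plate of the doxorubicin wells. Doxorubicin at 0.08 µM (3 wells per batch) and the 13 other chemicals at their higher concentrations (39 wells per batch) served to show where the response at 2 µM differed. The probe values given below are of the WT assay unless the ST assay is named.

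Doxorubicin is an anthracycline that slips between the bases of DNA and traps type II topoisomerases on cut DNA, which leaves double strand breaks. It can also be reduced to a radical that cycles with oxygen, and carbonyl reductases turn it into an alcohol. Broken DNA activates kinases that stabilise p53, a transcription factor whose protein is held low by MDM2, and p53 then switches on genes for cell cycle arrest, DNA repair and cell death. Since p53 is controlled largely at the protein level, its target genes, more than its own transcript, report its activity. Hepatocytes divide little in culture, and they make most plasma proteins, complement factors and drug metabolising enzymes. A hepatocyte isolate also holds a few macrophages (Kupffer cells), stellate cells and endothelial cells of the liver.

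The doxorubicin wells had 5977791 to 7492070 WT reads in batch 1 and 6208759 to 6488627 in batch 2. The vehicle wells had 5492941 to 8264980 and 5788931 to 7199877. The ST libraries of the doxorubicin wells held 722422 to 1034052 reads in batch 1 and 1217411 to 1508822 in batch 2. Pearson's r of WT counts between doxorubicin wells was 0.9875 to 0.9913 in batch 1 and 0.9888 to 0.9911 in batch 2. At 0.08 µM, 1 well in each batch stood apart. In batch 1, replicate 3 had an r of 0.9739 and 0.978 with the other wells of its group, which had 0.9933 with each other. In batch 2, replicate 2 had an r of 0.9591 to 0.9717 with the vehicle wells where the other wells at 0.08 µM had 0.9782 to 0.9878. Counts of calls against 0.08 µM are therefore given with and without these wells. Of the hepatocyte markers, all 9 on the assay were tested, and their summed level was 28100 to 33100 CPM (the counts-per-million value from the TMM-scaled library size, used for single wells throughout) with doxorubicin and 34400 to 39500 with vehicle in batch 1, and 24100 to 30100 and 39200 to 45200 in batch 2. Markers of the other liver cell types were present at low levels in vehicle wells and are given with the genes that fell.

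The log2 fold change of doxorubicin over vehicle from the fit is given as L2FC, so that 1 stands for 2-fold. A probe was called where edgeR's quasi-likelihood test gave a Benjamini-Hochberg adjusted p under 0.05. Of the 10689 WT probes tested, 242 (2.26%) were higher and 395 (3.7%) lower with 2 µM doxorubicin in batch 1. In batch 2, 1019 (9.53%) were higher and 1119 (10.5%) lower. In both batches, 185 probes (1.73%) were higher and 294 (2.75%) were lower, while 8 were called with opposite signs. Calls shared by the batches made up 76.5% of the calls of batch 1 and 22.8% of those of batch 2. With library sizes set by total counts instead of TMM, the split was 182 higher and 498 lower in batch 1 and 1359 higher and 937 lower in batch 2. Without doxorubicin replicate 1, batch 2 gave 1338 calls in place of 2138. Within a batch the test measures only the spread between wells of 1 rat.

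The ST assay of the same lysates called 221 of 1781 probes (12.4%) in batch 1 and 604 (33.9%) in batch 2. Of these, 76 were higher and 145 lower in batch 1, and 295 higher and 309 lower in batch 2. By total counts, which moved the median L2FC over all ST probes of batch 2 to 0.14, its calls were 454 higher and 225 lower.

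Large changes were mostly decreases. Among the probes called with one sign in both batches, 148 were at least 2-fold lower and 66 at least 2-fold higher in both by the fitted L2FC. At least 8-fold lower in both were 53, a fitted count that includes probes at or near 0 counts with doxorubicin. The 1 probe with a fitted L2FC as large in the other direction, Pcdh17, had 0 counts in the vehicle wells of batch 1, so its fitted value is no bound. The doxorubicin and vehicle wells did not overlap in either batch for 176 of the 185 higher and 274 of the 294 lower probes, against 1182 of all 10689 probes tested that were apart in the same direction in both batches. Of the fallen probes, 31 had no doxorubicin well above 3 counts in either batch.

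**Figure D1:**
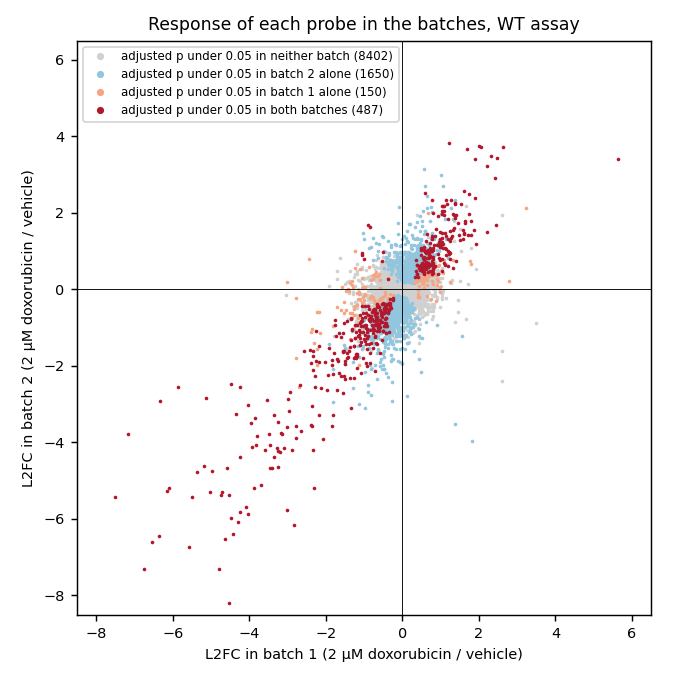
Log2 fold change (L2FC) of 2 µM doxorubicin over vehicle for each of the 10689 WT probes tested, batch 1 on the horizontal and batch 2 on the vertical axis, coloured by where the adjusted p was under 0.05. The probes called in both batches lie mostly in the lower left and upper right corners, and the long tail at the lower left holds the probes that fell at least 8-fold.

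Some genes that p53 switches on rose in both batches. A list of p53 target genes had 36 tested members. Of these, 7 rose and none fell in batch 1, and 12 rose and none fell in batch 2. Over all probes, 2.26% and 9.53% rose. In both batches 6 rose, where 1.73% of all probes did, namely Cdkn1a, Mdm2, Pmaip1, Gdf15, Ephx1 and Phlda3. Leaving out 1 well gave 6 to 7 rising members in batch 1 and 10 to 12 in batch 2, where up to 1 fell. Against the vehicle wells of the same plate, 2 fell in batch 2. The median L2FC of the list was 0.20 in batch 1 and 0.17 in batch 2, against -0.01 and 0.01 over all probes tested. No member differed between the batches in the test of interaction.

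Cdkn1a encodes p21, the inhibitor of cyclin dependent kinases through which p53 stops the cell cycle. Its level was 18.0, 10.5 and 15.1 CPM in the doxorubicin wells of batch 1 against 4.42, 6.97 and 4.39 with vehicle. In batch 2 it was 23.4, 22.4 and 25.3 CPM against 7.62 to 11.3 (median 8.9) in the 6 vehicle wells. The doxorubicin wells were above every vehicle well in both batches, and L2FC was 1.47 ± 0.30 (adjusted p = 2.48e-04) in batch 1 and 1.41 ± 0.18 (adjusted p = 1.10e-09) in batch 2 (± SE, as throughout). The ST assay gave L2FC of 1.65 (adjusted p = 5.34e-09) and 1.15 (adjusted p = 9.55e-09). The promoter of Cdkn1a is shown because the gene is the classical p53 target, here from 250 bases before to 50 after the start that RefSeq annotates in the rat assembly GRCr8, on the plus strand of chr20:7150682-7150981, with the match to a p53 decamer in capitals.
Cdkn1a: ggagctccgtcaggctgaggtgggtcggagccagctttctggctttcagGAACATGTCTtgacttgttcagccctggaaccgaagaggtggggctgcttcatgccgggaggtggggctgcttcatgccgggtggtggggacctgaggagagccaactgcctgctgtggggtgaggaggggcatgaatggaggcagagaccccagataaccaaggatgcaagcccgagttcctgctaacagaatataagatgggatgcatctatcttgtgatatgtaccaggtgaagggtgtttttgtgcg
The match starts at -201 from the gene's start. Matches to the decamer, counted on both strands of promoters of this length, were found in 488 of 7543 tested genes with a promoter in the table (6.47%), in 7 of 30 p53 target genes (23.3%), in 15 of 125 genes that rose in both batches (12.0%) and in 10 of 193 that fell (5.18%). They were also found in 5 of 25 interferon stimulated genes (20.0%) and 1 of 6 Kupffer cell markers (16.7%). A match is a description of the letters and not a site shown to be bound.

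Mdm2, the ubiquitin ligase that p53 induces and that degrades p53, had 153, 182 and 154 CPM with doxorubicin and 78.7, 76.1 and 87.3 with vehicle in batch 1. In batch 2 the values were 226, 188 and 191 CPM with doxorubicin and 61.7 to 76.8 (median 73.7) with vehicle. The groups were apart in both batches, and L2FC was 1.02 ± 0.19 (adjusted p = 7.66e-05) in batch 1 and 1.48 ± 0.15 (adjusted p = 3.59e-13) in batch 2. Gdf15, a secreted stress cytokine of the TGF-beta family, had 264, 258 and 270 CPM against 90.8, 102 and 86.8 in batch 1 and 158, 163 and 173 against 52.2 to 73.2 (median 70.3) in batch 2. It was higher in every doxorubicin well, and L2FC was 1.5 ± 0.16 (adjusted p = 1.14e-11) in batch 1 and 1.29 ± 0.15 (adjusted p = 1.37e-10) in batch 2. Pmaip1 encodes NOXA, a BH3-only protein that triggers apoptosis, and had 10.9, 6.45 and 10.7 CPM against 2.21, 1.74 and 3.57 in batch 1. In batch 2 it had 5.03, 5.8 and 6.25 CPM against 0.999 to 2.6 (median 1.99), again without overlap, and L2FC was 1.88 ± 0.32 (adjusted p = 1.02e-05) in batch 1 and 1.55 ± 0.31 (adjusted p = 8.89e-05) in batch 2. Ephx1, microsomal epoxide hydrolase, and Phlda3, an inhibitor of AKT signalling, rose with L2FC of 0.97 and 1.32 and of 0.66 and 0.65 in batches 1 and 2.

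Other p53 genes were less clear. Bax, which opens the outer mitochondrial membrane in apoptosis, had 838, 663 and 800 CPM against 588, 601 and 570 in batch 1 and 718, 735 and 755 against 539 to 647 (median 563) in batch 2. Its wells were apart in both batches, but it passed the test only in batch 2, with L2FC of 0.39 ± 0.17 (adjusted p = 0.209) and 0.36 ± 0.12 (adjusted p = 0.0205), a call that was lost without any 1 of the 3 doxorubicin wells, with an adjusted p of up to 0.0879. In batch 1, Bax was called in a fit of the doxorubicin and vehicle wells alone (adjusted p = 0.0207). Ccng1, the gene of cyclin G1, had 69.9, 108 and 154 CPM against 50.9, 55.2 and 102 in batch 1 and 63.3, 119 and 50.6 against 23.3 to 105 (median 57.2) in batch 2. The WT wells overlapped in both batches (L2FC 0.68 ± 0.34, adjusted p = 0.342, and 0.35 ± 0.37, adjusted p = 0.554), and in batch 2 the sign turned without doxorubicin replicate 2 (-0.10) or against the vehicle wells of the same plate alone (-0.29), while the ST assay called it higher with L2FC of 0.70 (adjusted p = 0.0383) and 0.77 (adjusted p = 2.27e-05). Only in batch 2 did Ei24, Klf4, Sertad1, Sesn2 and Tigar pass the test, Klf4 with L2FC of 0.37 and 1.08 and Ei24 with 0.51 and 0.79 in batches 1 and 2, and the difference between batches was called for none of them. Of the 16 tested regulators of p53, Mdm2 was the member called in both batches with one sign, where 1.73% of all probes rose and 2.75% fell.

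**Figure D2:**
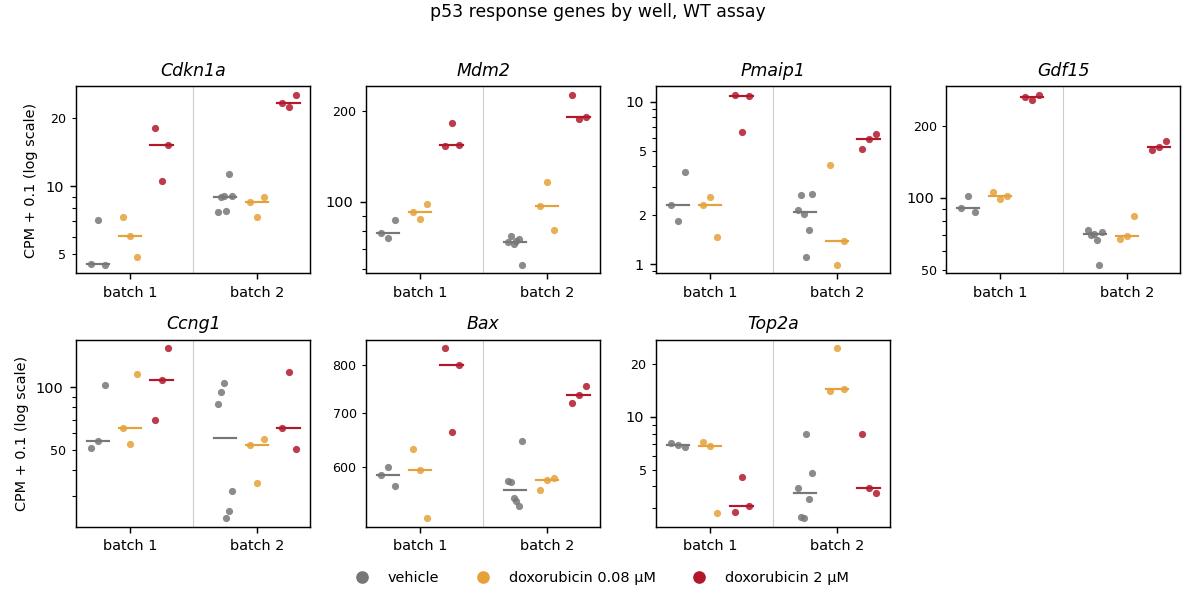
Level of 7 genes tied to p53 and topoisomerase in each WT well (CPM + 0.1, log scale), with vehicle, 0.08 µM and 2 µM doxorubicin side by side in each batch and a line at the median of each group. Cdkn1a, Mdm2, Pmaip1 and Gdf15 lie above all vehicle wells at 2 µM in both batches, and Ccng1 and Top2a overlap vehicle in at least 1 batch.

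The genes of the cell death machinery that rose included inhibitors and promoters of death. Of 36 tested members of the BCL2 family, death receptors and caspases, 5 rose and 1 fell in batch 1, 9 rose and 6 fell in batch 2, and 5 rose and 1 fell in both, where 1.73% of all probes rose and 2.75% fell. In batch 2, where 9.53% of all probes rose and 10.5% fell, 3 members fell without doxorubicin replicate 1. Xiap, which blocks caspases, had 309, 355 and 371 CPM against 200, 223 and 223 in batch 1 and 255, 277 and 305 against 171 to 182 (median 174) in batch 2, with no overlap of the groups, and L2FC was 0.68 ± 0.09 (adjusted p = 2.41e-08) in batch 1 and 0.67 ± 0.07 (adjusted p = 6.81e-13) in batch 2. The ST probe of Xiap was not called in batch 2 (L2FC 0.26, adjusted p = 0.422). Bcl2l1 encodes the survival protein BCL-XL and rose with L2FC of 0.80 ± 0.17 (adjusted p = 5.77e-04) and 0.55 ± 0.14 (adjusted p = 0.00147), but by ST it was not called in batch 2 (L2FC 0.28, adjusted p = 0.228). Pmaip1, above, and the TNF receptor gene Tnfrsf1b, with L2FC of 0.39 and 0.65, also rose. Birc3, an inhibitor of apoptosis and NF-kB target, fell with L2FC of -0.38 ± 0.09 (adjusted p = 0.00332) and -0.62 ± 0.09 (adjusted p = 9.62e-08), though without doxorubicin replicate 1 the call of batch 1 was lost (adjusted p = 0.0566). That call was also lost with no filter (adjusted p = 0.295) and in a fit of the doxorubicin and vehicle wells alone (adjusted p = 0.0508), and ST did not make it (L2FC -0.19, adjusted p = 0.612).

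Doxorubicin traps type II topoisomerases on DNA, of which Top2a was the one tested. None of the 7 tested topoisomerase and topoisomerase repair genes was called with one sign in both batches. Top2a, whose product cuts both strands in dividing cells, had 2.77, 4.42 and 3.01 CPM against 6.98, 6.79 and 6.66 in batch 1 and 7.84, 3.81 and 3.57 against 2.53 to 7.85 (median 3.56) in batch 2. It was lower than vehicle in every well of batch 1 and overlapped in batch 2 (L2FC -0.98 ± 0.37, adjusted p = 0.122, and 0.30 ± 0.44, adjusted p = 0.693, the latter -0.16 without doxorubicin replicate 1). The decrease in batch 1 was called in a fit of the doxorubicin and vehicle wells alone (adjusted p = 0.0221). At 0.08 µM Top2a had 7.09, 6.72 and 2.73 CPM in batch 1 and 14.0, 24.5 and 14.3 in batch 2, where all 3 wells were above every vehicle well, and the L2FC of 2 µM over 0.08 µM was -0.71 (adjusted p = 0.303) and -1.79 (adjusted p = 0.00797, and 0.0897 without the well that stood apart). Top1 had L2FC of -0.08 ± 0.11 (adjusted p = 0.812) and 0.15 ± 0.15 (adjusted p = 0.523). Of 28 tested genes of double strand break repair, 6 rose and 2 fell in batch 2, and none rose without doxorubicin replicate 1. Over all probes 9.53% rose and 10.5% fell there. Nhej1 was the one of the 28 called in both batches with one sign, where 1.73% of all probes rose and 2.75% fell. It encodes XLF, which helps ligate broken ends, and had 22.1, 12.4 and 17.6 CPM against 8.72, 7.84 and 7.8 in batch 1 and 25.9, 19.5 and 21.3 against 9.64 to 17.0 (median 14.3) in batch 2. The groups did not overlap, and L2FC was 1.08 ± 0.24 (adjusted p = 9.82e-04) in batch 1 and 0.69 ± 0.18 (adjusted p = 0.0027) in batch 2, the latter lost without doxorubicin replicate 1 (adjusted p = 0.0613). In batch 2 alone, 6 of 30 genes of excision and mismatch repair rose and none fell, where 9.53% of all probes rose, among them Pole, the catalytic subunit of a replicative DNA polymerase, with L2FC of -0.16 and 1.17 in batches 1 and 2. Without doxorubicin replicate 1, 2 members rose, and the difference between batches was called for none.

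Of the cell cycle genes called against vehicle, most fell in batch 1 and most rose in batch 2. Of 39 tested genes, 1 rose and 13 fell in batch 1, whereas 11 rose and 2 fell in batch 2, and the median L2FC was -0.50 and 0.33. Over all probes 2.26% rose and 3.7% fell in batch 1, and 9.53% and 10.5% in batch 2. Leaving out 1 well changed the number that fell in batch 1 to between 6 and 12, the 6 being without doxorubicin replicate 1, and the number that rose in batch 2 to between 2 and 13, the 2 being without doxorubicin replicate 1. By total counts the list had 1 rise and 13 decreases in batch 1 and 13 rises and 2 decreases in batch 2. The decreases of batch 1 included Plk1, a mitotic kinase, with L2FC of -1.72 and -0.46, Kif20a, a kinesin of cell division, with -2.16 and -1.14, Ccna2, the gene of cyclin A2, with -1.60 and -0.53, and the proliferation marker Mki67 with -1.48 and -0.55 in batches 1 and 2. Each of these was thus negative in batch 2 too. The test of interaction called 5 of the 39 genes, or 1 without doxorubicin replicate 1 of batch 2. The increases of batch 2 included Cdt1 (-0.11 and 1.44), Gins1 (-0.00 and 1.33) and Mcm3 (-0.50 and 1.38), whose products act at replication origins. Against 0.08 µM, 10 of the 39 genes were called lower at 2 µM in both batches and 1 higher, where 2.23% and 1.12% of all probes were. Without both 0.08 µM wells that stood apart, 5 were lower and 1 higher. In batch 2 the wells at 0.08 µM had themselves risen against vehicle for some of the 39 genes, such as Mcm5 with L2FC of 2.13 (adjusted p = 4.30e-06) and Mcm6 with 1.5 (adjusted p = 1.74e-04). Without the well that stood apart these were 1.53 (adjusted p = 0.0209) and 1.18 (adjusted p = 0.0535), so that the call of Mcm6 was lost. A call against 0.08 µM there does not by itself show a decrease against vehicle. Kif20a had an L2FC of -1.74 and -2.93 against 0.08 µM, while against vehicle it was not called in batch 2 (-1.14, adjusted p = 0.109).

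The difference between the batches was tested as the interaction of batch and treatment, which called 137 of 10689 probes (1.28%), 70 with a more positive and 67 with a more negative L2FC in batch 2. Without doxorubicin replicate 1 of batch 2 the count was 38. It was 77 without doxorubicin replicate 3 of batch 1, and 84 and 86 without vehicle replicates 1 and 3 of batch 1. By total counts, which moved the median difference over all probes to 0.15, the split was 154 and 43. Mcm5 and Mcm6 encode subunits of the MCM helicase that unwinds DNA for replication. Mcm5 had 3.63, 4.17 and 5.02 CPM with doxorubicin and 8.02, 8.01 and 6.99 with vehicle in batch 1, and 10.2, 8.39 and 5.95 against 2.2 to 2.98 (median 2.6) in batch 2. Its doxorubicin wells were below every vehicle well in batch 1 and above every one in batch 2, with L2FC of -0.84 ± 0.27 and 1.64 ± 0.35 and a difference of 2.47 ± 0.47 (adjusted p = 3.07e-04, and 0.00661 without doxorubicin replicate 1 of batch 2). Its call in batch 1 was itself lost without any 1 of the 6 wells (adjusted p of up to 0.22), and the ST probe was not called in batch 1 (adjusted p = 0.858). For Mcm6 the difference was 2.00 ± 0.42 (adjusted p = 0.00217), and 1.61 and no longer called without that well (adjusted p = 0.0909). Its own call in batch 2 was lost without the same well, without vehicle replicate 3 or against the vehicle wells of the same plate (adjusted p = 0.361, 0.0577 and 0.051), and that in batch 1 without vehicle replicate 3 (adjusted p = 0.0629). Aurkb, Cdc6 and Mcm3 were the other cell cycle genes called in this test, and their calls held in 9, 1 and 13 of the 15 fits that leave out 1 well, with an adjusted p of up to 0.287, 0.316 and 0.409. The vehicle levels of Mcm5 were themselves different, as the lowest of batch 1 was above the highest of batch 2.

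Ccnd1, Cks2 and Ccne2 were the cell cycle genes called with one sign in both batches. Ccnd1, the gene of cyclin D1 which drives entry into the cycle, had 80.8, 62.2 and 68.4 CPM against 39.2, 32.4 and 31.7 in batch 1 and 133, 99.9 and 98.9 against 22.4 to 31.0 (median 25.8) in batch 2. Every doxorubicin well was above vehicle, and L2FC was 1.03 ± 0.24 (adjusted p = 0.00157) in batch 1 and 2.06 ± 0.25 (adjusted p = 3.99e-10) in batch 2. Cks2, a small partner of cyclin dependent kinases, had 46.9, 43.7 and 53.2 CPM against 95.3, 92.7 and 112 in batch 1 and 59.6, 47.6 and 49.1 against 84.2 to 98.6 (median 94.4) in batch 2, and L2FC was -1.06 ± 0.14 (adjusted p = 8.70e-09) in batch 1 and -0.83 ± 0.18 (adjusted p = 3.89e-04) in batch 2. Ccne2, the gene of cyclin E2, fell with L2FC of -1.31 and -1.05, but the call was lost in batch 1 without doxorubicin replicate 1 or 3 or vehicle replicate 1 or 3 (adjusted p of up to 0.124) and in batch 2 without doxorubicin replicate 3 (adjusted p = 0.169), and the ST probe was called in neither batch (adjusted p = 0.41 and 0.388).

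**Figure D3:**
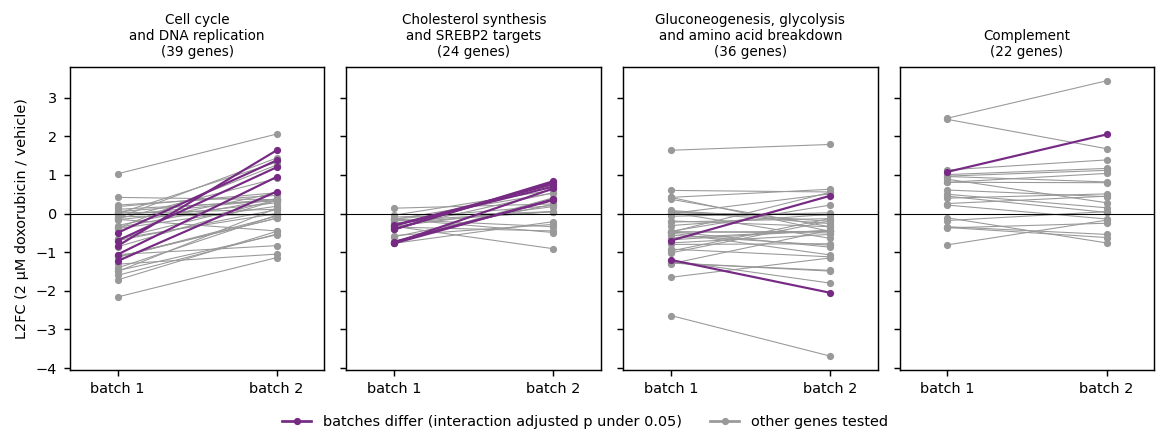
L2FC of 2 µM doxorubicin over vehicle in batch 1 and batch 2 for each tested gene of 4 lists, with purple lines where the batches differed (interaction adjusted p under 0.05). The cell cycle and cholesterol lists have 5 and 7 purple lines, all of which run upward from batch 1 to batch 2, and most complement genes lie above 0 in both.

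Genes of cholesterol synthesis that were called likewise fell in batch 1 and mostly rose in batch 2. Its 24 tested genes are controlled together by the factor SREBP2. In batch 1, 5 fell and none rose, in batch 2, 7 rose and 2 fell, and none was called with one sign in both. By ST, 2 of 17 tested members fell in both batches and none rose in both. ST called 12.4% of all its probes in batch 1 and 33.9% in batch 2. The share over all probes was 3.7% lower in batch 1, and 9.53% higher and 10.5% lower in batch 2. Leaving out 1 well gave 1 to 3 that fell in batch 1, the 1 being without vehicle replicate 2, and 4 to 8 that rose in batch 2, the 4 being without doxorubicin replicate 1. Median L2FC was -0.33 and 0.24. The interaction called 7 of the 24, with a more positive L2FC in batch 2 each time. By total counts 6 fell in batch 1, 8 rose and 1 fell in batch 2, and the interaction called 11. Fdft1, squalene synthase, had an L2FC of -0.31 and 0.70, with a difference of 1.0 ± 0.19 (adjusted p = 4.57e-04). Msmo1, a sterol oxidase, had -0.41 and 0.81 (difference 1.21 ± 0.27, adjusted p = 0.00475). Without doxorubicin replicate 1 of batch 2 these calls held (adjusted p = 0.00562 and 0.0156) and 4 of the 7 were lost. Fasn, fatty acid synthase, went the same way, with 42.9, 40.1 and 48.9 CPM against 59.4, 71.6 and 60.4 in batch 1 and 43.9, 42.6 and 42.6 against 23.7 to 30.3 (median 25.2) in batch 2. Its groups were apart in opposite directions, with L2FC of -0.54 ± 0.12 and 0.73 ± 0.14 and a difference of 1.26 ± 0.19 (adjusted p = 3.60e-06).

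Complement genes rose more evenly. Of 22 tested members, 10 rose and 1 fell in batch 1, 11 rose and 3 fell in batch 2, and 9 rose and 1 fell in both. Over all probes 2.26% rose and 3.7% fell in batch 1, 9.53% and 10.5% in batch 2 and 1.73% and 2.75% in both. The median L2FC of the list was 0.55 and 0.44. The genes that rose in both batches included parts of the C1 complex (C1r, C1s), C4 (C4a, C4b), the membrane attack complex (C6, C9) and soluble inhibitors (C4bpa, C4bpb). C4a and C4b are near-identical copies whose reads may not be told apart. Mbl2, a mannose binding lectin that starts the lectin pathway, fell with L2FC of -0.34 and -0.54. Leaving out 1 well gave 6 to 11 rising members in batch 1, the 6 being without vehicle replicate 3, and 9 to 11 in batch 2. The list had no decrease in batch 1 without doxorubicin replicate 1.

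C9 forms the pore of the membrane attack complex and had one of the largest increases. Its level was 300, 281 and 264 CPM with doxorubicin against 49.8, 61.8 and 41.4 with vehicle in batch 1, and 222, 223 and 224 against 14.3 to 27.5 (median 20.0) in batch 2. Every doxorubicin well was far above every vehicle well, and L2FC was 2.47 ± 0.21 (adjusted p = 6.49e-15) in batch 1 and 3.44 ± 0.21 (adjusted p = 1.05e-22) in batch 2. The ST assay gave 2.59 and 3.52 (adjusted p = 2.86e-14 and 2.61e-24). C6 starts the assembly of the same pore and had 9.0, 9.86 and 10.7 CPM against 1.16, 2.96 and 1.46 in batch 1 and 2.22, 3.36 and 2.53 against 0.286 to 1.86 (median 0.393) in batch 2. The groups were apart in both batches, and L2FC was 2.44 ± 0.37 (adjusted p = 9.15e-07) in batch 1 and 1.68 ± 0.48 (adjusted p = 0.00745) in batch 2. Without doxorubicin replicate 2 the adjusted p of C6 in batch 2 was 0.0576. C4bpb, a chain of the C4 binding protein, rose with L2FC of 1.08 ± 0.18 and 2.05 ± 0.19, and its difference between batches of 0.97 ± 0.27 (adjusted p = 0.0415) was called in 4 of the 15 fits that leave out 1 well, with an adjusted p of up to 0.124.

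Other acute phase proteins were divided. The 3 chains of fibrinogen rose in both batches, Fga with L2FC of 1.25 and 0.79, Fgb with 0.97 and 0.76 and Fgg with 1.11 and 0.65 in batches 1 and 2, though the batch 1 call of Fgb was lost without vehicle replicate 3 (adjusted p = 0.079). By ST, Fgb was not called in batch 2 (L2FC 0.43, adjusted p = 0.0644). Of the coagulation genes that fell in both, Plau, the plasminogen activator urokinase, had L2FC of -2.19 and -1.91, and F10, factor X, had -0.54 and -1.32, the call of batch 1 for F10 being lost without any well other than vehicle replicate 3 (adjusted p of up to 0.201). Fgg had 26800, 22900 and 31100 CPM with doxorubicin and 12000, 14300 and 11100 with vehicle in batch 1, and 9750, 13800 and 14800 against 7460 to 8550 (median 8420) in batch 2, with no overlap. Cp, ceruloplasmin, which carries copper and oxidises iron, had 976, 1080 and 1040 CPM against 397, 564 and 408 in batch 1 and 323, 484 and 464 against 146 to 184 (median 174) in batch 2. It was higher in every doxorubicin well, and L2FC was 1.18 ± 0.14 (adjusted p = 1.36e-09) in batch 1 and 1.33 ± 0.14 (adjusted p = 1.95e-12) in batch 2. Hpx, which scavenges haem, and Itih4 rose as well, with L2FC of 0.82 and 0.58 and 0.73 and 0.48. Against these, transferrin (Tf) had 6040, 5710 and 5630 CPM against 8280, 7440 and 7960 in batch 1 and 3700, 4490 and 4390 against 7420 to 9030 (median 8250) in batch 2. It was lower in every doxorubicin well, and L2FC was -0.45 ± 0.11 (adjusted p = 0.00367) in batch 1 and -0.97 ± 0.17 (adjusted p = 8.36e-06) in batch 2. With no filter the call of Tf in batch 1 was lost (adjusted p = 0.0536). Apoh fell with L2FC of -0.56 and -0.68, a call that was lost in batch 1 without any 1 of the 6 wells (adjusted p of up to 0.171) and in batch 2 without any 1 of the 3 doxorubicin wells or vehicle replicate 1 (up to 0.105). Alb, the gene of albumin, was called lower by WT in batch 2 and not in batch 1 (L2FC -0.31 ± 0.16, adjusted p = 0.367, and -0.75 ± 0.10, adjusted p = 1.43e-08) and by ST in both (-0.66, adjusted p = 0.00167, and -1.0, adjusted p = 4.87e-08). By total counts WT called Alb lower in batch 1 too (L2FC -0.39, adjusted p = 0.0332). Of 31 tested hepatocyte secreted proteins, 3 rose and 4 fell in batch 1, 4 rose and 12 fell in batch 2, and 3 rose and 2 fell in both, where 1.73% and 2.75% of all probes did. Over all probes 2.26% rose and 3.7% fell in batch 1, and 9.53% and 10.5% in batch 2. Without 1 well, 2 to 3 fell in batch 1 and 8 to 12 in batch 2, the lowest in each being without doxorubicin replicate 1. By ST, 2 of 25 rose and 5 fell in both, where ST called 12.4% of all its probes in batch 1 and 33.9% in batch 2.

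Of the interferon stimulated genes listed, those called rose, whereas Ifitm1, not in the list, fell and is described below. These genes are switched on when interferon receptors or sensors of foreign nucleic acid signal through STAT and IRF factors. Of 31 tested, 5 rose and none fell in batch 1, 8 rose and none fell in batch 2, and Gbp2, Irf1, Ifi27l2b and Rsad2 rose in both. The share of all probes that rose was 2.26%, 9.53% and 1.73%. By ST, 1 of 18 tested members rose and none fell in both batches. Only in batch 2 did Isg15, Oasl and Irf7 pass the test, with L2FC in batches 1 and 2 of 1.05 and 2.71 for Isg15, a small protein joined to others in antiviral defence, and of 1.26 and 2.12 for Oasl, while the test of the difference between batches called no member. The median L2FC was 0.47 and 0.39. Leaving out 1 well gave 2 to 10 rising members in batch 1 and 5 to 10 in batch 2, the 2 being without vehicle replicate 3 and the 5 without doxorubicin replicate 2. The promoters of Gbp2 and of Cxcl10, a chemokine gene that interferon induces, are shown because both genes rose in both batches and hold a match to the interferon stimulated response element, searched as GAAA, any 2 bases and GAAA on either strand and set in capitals.
Gbp2: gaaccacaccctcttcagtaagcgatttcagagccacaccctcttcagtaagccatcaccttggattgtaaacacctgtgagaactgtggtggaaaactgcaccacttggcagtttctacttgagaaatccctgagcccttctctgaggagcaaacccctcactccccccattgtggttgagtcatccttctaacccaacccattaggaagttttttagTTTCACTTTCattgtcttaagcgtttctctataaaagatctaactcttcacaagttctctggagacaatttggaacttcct
Cxcl10: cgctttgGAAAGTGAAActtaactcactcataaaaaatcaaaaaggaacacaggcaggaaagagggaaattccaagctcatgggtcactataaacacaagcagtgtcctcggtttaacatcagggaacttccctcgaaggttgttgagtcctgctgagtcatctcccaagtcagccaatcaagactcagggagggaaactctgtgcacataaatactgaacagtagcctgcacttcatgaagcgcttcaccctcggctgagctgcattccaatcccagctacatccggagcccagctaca
Both run from 250 bases before to 50 after the RefSeq start in GRCr8, Gbp2 at chr2:234005477-234005776 and Cxcl10 at chr14:15988816-15989115, each on the plus strand, and the matches start at -31 and -243. This element was found in 17 of 25 interferon stimulated genes (68.0%), in 208 of 7543 tested genes (2.76%) in 8 of 125 genes that rose in both batches (6.4%), in 8 of 193 that fell in both (4.15%) and in 5 of 35 that fell at least 8-fold in both (14.3%).

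Gbp2, an interferon induced GTPase, had 59.3, 46.5 and 49.5 CPM with doxorubicin and 24.3, 19.2 and 17.4 with vehicle in batch 1, and 165, 168 and 157 against 47.5 to 61.0 (median 53.8) in batch 2. The groups were well apart, and L2FC was 1.34 ± 0.20 (adjusted p = 3.31e-07) in batch 1 and 1.60 ± 0.24 (adjusted p = 2.85e-07) in batch 2. Cxcl10 had 89.4, 139 and 137 CPM against 43.4, 61.1 and 42.6 in batch 1 and 159, 173 and 178 against 32.1 to 58.8 (median 40.6) in batch 2, likewise without overlap, and L2FC was 1.32 ± 0.22 (adjusted p = 6.51e-06) in batch 1 and 1.97 ± 0.39 (adjusted p = 5.02e-05) in batch 2. Irf1, a transcription factor of the interferon response, rose with L2FC of 0.57 ± 0.10 (adjusted p = 1.67e-05) and 0.85 ± 0.10 (adjusted p = 2.19e-10). Ifi27l2b, an interferon inducible gene, rose with L2FC of 0.61 and 0.95, but in batch 1 the call was lost without any well other than vehicle replicate 2 (adjusted p of up to 0.315). Rsad2, the gene of the antiviral enzyme viperin, had 0.519, 5.06 and 1.0 CPM against 0.233, 1.22 and 0.162 in batch 1 and 1.48, 8.08 and 1.34 against 0 to 1.04 (median 0.245) in batch 2. Replicate 2 was far above the other doxorubicin wells in both batches, the groups overlapped in batch 1, and without replicate 2 neither call held (adjusted p = 0.804 and 0.412). The call of batch 1 was also lost without vehicle replicate 1 or 3 (adjusted p = 0.275 and 0.241).

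Of 27 tested NF-kB targets and chemokines, 3 rose and 1 fell in both batches, where 1.73% of all probes rose and 2.75% fell. Cxcl3, which attracts neutrophils, had 27.2, 21.5 and 24.3 CPM against 10.1, 9.23 and 7.8 in batch 1 and 35.1, 35.4 and 33.0 against 5.54 to 14.0 (median 8.07) in batch 2. Every doxorubicin well was above vehicle, and L2FC was 1.41 ± 0.26 (adjusted p = 3.87e-05) in batch 1 and 1.95 ± 0.25 (adjusted p = 3.50e-09) in batch 2. Csf1, the growth factor that macrophages depend on, had 89.6, 117 and 86.3 CPM against 54.9, 52.3 and 60.0 in batch 1 and 150, 156 and 143 against 67.4 to 75.3 (median 69.1) in batch 2. Here too no well overlapped, and L2FC was 0.81 ± 0.15 (adjusted p = 7.28e-05) in batch 1 and 1.09 ± 0.15 (adjusted p = 8.93e-09) in batch 2. The receptor gene of Csf1, Csf1r, went the other way, with 10 counts in all doxorubicin wells against 114 in the vehicle wells of batch 1, and 4 against 224 in the wells of batch 2 (L2FC -3.4 and -4.67).

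Macrophage genes were among the largest decreases. Of the 13 markers of Kupffer cells and leukocytes on the WT assay, 7 were tested and 5 fell in both batches, where 2.75% of all probes did, namely Clec4f, Cd163, Lyz2, Csf1r and Tyrobp, while Cd68 and Cd14 passed in neither. The median L2FC of the 7 was -4.26 and -4.67, and the 5 calls held in each batch when any 1 well was left out. The summed level of the 13 markers was 30.8 to 34.3 CPM with doxorubicin and 72.0 to 100 with vehicle in batch 1, and 47.5 to 53.7 and 68.8 to 85.9 in batch 2, and Cd14 gave most of what remained (514 and 888 counts over the doxorubicin wells of batches 1 and 2). Tyrobp and Ptprc had 0 counts in all doxorubicin wells of batch 1 against 72 and 6 with vehicle, and Fcer1g had 0 in all of batch 2 against 38 in the 6 vehicle wells. Ptprc and Fcer1g were below the filter and not tested. In lysate of a whole well, fewer cells of a type and less RNA per cell cannot be told apart.

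Clec4f, a lectin receptor particular to Kupffer cells, had 0.692, 0.253 and 1.67 CPM with doxorubicin and 14.5, 22.1 and 12.0 with vehicle in batch 1, and 0.148, 0.458 and 0.298 against 4.86 to 8.13 (median 6.63) in batch 2. No well overlapped, and L2FC was -4.26 ± 0.50 (adjusted p = 8.58e-10) in batch 1 and -4.38 ± 0.56 (adjusted p = 2.41e-09) in batch 2. Cd163, the scavenger receptor for haemoglobin, had 0, 0.253 and 0.837 CPM against 11.2, 9.93 and 10.2 in batch 1 and 0, 0.153 and 0 against 8.43 to 12.5 (median 10.8) in batch 2. The L2FC of batch 1 was -4.80 ± 0.50 (adjusted p = 1.06e-11), and in batch 2 the doxorubicin wells held 1 count in all, 216-fold lower with a 95% counting interval of 38.5 to 8550. Lyz2, macrophage lysozyme, had 0.346, 0.506 and 0.669 CPM against 10.6, 16.2 and 10.4 in batch 1, an L2FC of -4.54 ± 0.42 (adjusted p = 1.06e-13), and 2 counts in all doxorubicin wells of batch 2 against 198 with vehicle, 48.9-fold lower (95% counting interval 13.4 to 407). Tyrobp, an adaptor of myeloid receptors, had 0 counts in the doxorubicin wells of batch 1 against 72 with vehicle, at least 23.0-fold lower, and 1 against 119 in batch 2, 58.8-fold lower (interval 10.3 to 2340). These intervals and bounds are per read of library and cover counting error only.

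Ctss, the cathepsin that prepares antigens in macrophages, had the largest decrease of batch 2 among the genes named for their size. It had 2.08, 1.9 and 0.837 CPM with doxorubicin and 27.1, 39.2 and 28.6 with vehicle in batch 1, and 0.148, 0.915 and 0 against 13.1 to 26.2 (median 20.8) in batch 2. The groups lay far apart, and L2FC was -4.26 ± 0.36 (adjusted p = 2.28e-15) in batch 1 and -5.81 ± 0.47 (adjusted p = 9.63e-17) in batch 2. RT1.Db1, a class II histocompatibility gene, had 0.346, 0.758 and 0.669 CPM against 6.05, 11 and 9.75 in batch 1 and 0.148, 0.61 and 0.595 against 4.84 to 9.54 (median 6.52) in batch 2, and L2FC was -3.81 ± 0.54 (adjusted p = 1.53e-07) in batch 1 and -3.84 ± 0.48 (adjusted p = 8.48e-10) in batch 2. Fabp4, a fatty acid binding protein of adipocytes, macrophages and endothelium, had 0.865, 1.39 and 0.167 CPM against 20.6, 27.3 and 21.4 in batch 1 and 0.444, 0.763 and 1.34 against 27.1 to 41.6 (median 34.0) in batch 2. It fell by more than an order of magnitude in each well, and L2FC was -4.72 ± 0.34 (adjusted p = 3.02e-18) in batch 1 and -5.30 ± 0.35 (adjusted p = 4.89e-21) in batch 2. Cd4, which rat macrophages also carry, had 1 count in the doxorubicin wells of each batch against 118 and 236 with vehicle, 113-fold (interval 19.9 to 4510) and 117-fold (20.7 to 4620) lower. Cd200r1l, a receptor of the CD200R family, had 0 against 38 and 68, at least 12.2-fold and 11.2-fold lower.

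Some genes of stellate cells fell too. Of 11 stellate cell markers on the assay 4 were tested. Col1a2 and Col3a1 fell in both batches, where 2.75% of all probes did, and Rgs5 in batch 1, where 3.7% did. The other tested marker, Reln, was called in neither batch. Summed over the 11, the level was 183 to 207 CPM with doxorubicin and 362 to 384 with vehicle in batch 1, and 206 to 213 and 241 to 311 in batch 2, most of it from Reln. Acta2 and Lum were at 0 in the 3 doxorubicin wells of batch 2, where the 6 vehicle wells held 23 and 5 counts, whereas Dcn had 5 against 11. None of these genes was tested. Of 12 endothelial markers Eng was the one tested by WT and was not called in either batch (L2FC -1.06 and -1.13), whereas the 1 endothelial marker tested by ST was lower in both, and the summed level was 1.67 to 2.15 CPM against 4.87 to 8.72 in batch 1 and 1.04 to 1.48 against 4.29 to 6.06 in batch 2. Kdr, Stab1 and Vwf were at 0 in every doxorubicin well of both batches, where the 6 vehicle wells of batch 2 held 26, 6 and 3 counts. Clec4g had 4 counts in the 3 doxorubicin wells of batch 2 against 8 in the 6 vehicle wells. These genes were below the filter and not tested. Of 10 biliary markers 4 were tested and Spp1, the gene of osteopontin which macrophages also make, fell in both batches with L2FC of -3.53 and -2.89, the call of batch 1 being lost without doxorubicin replicate 1 or 3 or vehicle replicate 3 (adjusted p of up to 0.104) and that of batch 2 against the vehicle wells of the same plate (adjusted p = 0.054). The ST assay did not call it in batch 1 (adjusted p = 0.146). The sum of the 10 biliary markers was 60.2 to 71.7 CPM against 80.6 to 86.1 in batch 1 and overlapped in batch 2, with 90.3 to 103 against 89.4 to 106.

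Col3a1, a fibrillar collagen chain, had 13.3, 7.33 and 8.87 CPM with doxorubicin and 90.6, 120 and 70.0 with vehicle in batch 1, and 2.22, 2.29 and 1.93 against 19.0 to 31.5 (median 23.7) in batch 2. Each doxorubicin well was below every vehicle well, and L2FC was -3.26 ± 0.25 (adjusted p = 1.86e-17) in batch 1 and -3.47 ± 0.31 (adjusted p = 6.58e-15) in batch 2. Col1a2, a chain of type I collagen, and Col6a2, a chain of type VI collagen, fell as well, with L2FC of -3.01 and -3.61 and of -3.28 and -4.15. The other probe of Col1a2 gave -3.47 and -4.67. The receptors for endothelin, a peptide that contracts vessels and stellate cells, fell as a pair. Ednrb had 2.59, 1.39 and 1.17 CPM against 21.7, 17.9 and 18.0 in batch 1 and 0, 1.07 and 0.298 against 3.72 to 8.06 (median 6.46) in batch 2, and L2FC was -3.50 ± 0.24 (adjusted p = 3.76e-19) in batch 1 and -3.78 ± 0.46 (adjusted p = 5.37e-10) in batch 2. Ednra had 3 counts in the doxorubicin wells of batch 1 against 253 with vehicle, 80.9-fold lower (95% counting interval 27.4 to 395), and 1 against 104 in batch 2, 51.4-fold lower (9.02 to 2050). Calcrl and Ramp1, which together form the receptor of the vessel relaxing peptide CGRP, fell with L2FC of -4.05 and -3.01 and of -3.11 and -4.14. Tnfrsf11b, osteoprotegerin, fell with L2FC of -3.15 and -3.79, and the unnamed locus LOC103694908 with -4.26 and -2.56. Whether the cell types that carry these genes had a part in other results was not tested.

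**Figure D4:**
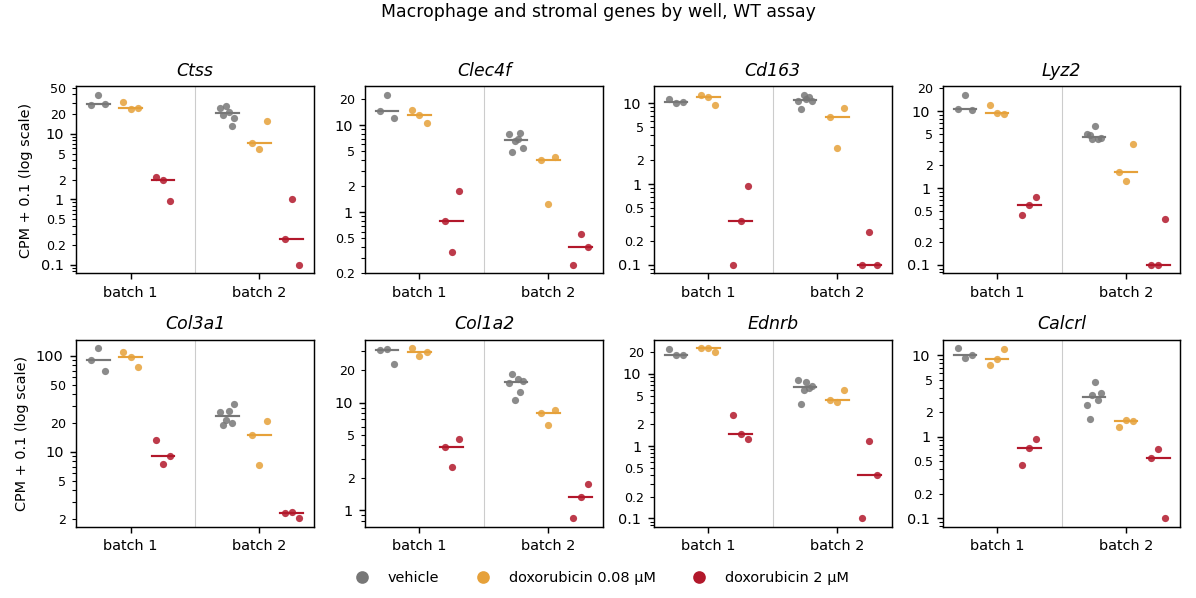
Level of 8 macrophage and stromal genes in each WT well (CPM + 0.1, log scale), with vehicle, 0.08 µM and 2 µM doxorubicin side by side in each batch and a line at each median. The wells at 2 µM lie below all vehicle wells for every gene in both batches, several of them at or near 0 CPM, and the wells at 0.08 µM lie above all those at 2 µM, among or near the vehicle wells in batch 1 and all below their median in batch 2.

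Genes of amino acid breakdown, the urea cycle and glucose metabolism, which mark the working hepatocyte, were mostly lower where they were called. Among the 9 hepatocyte markers, Cps1 and Tf fell in both batches and Fgb rose. Of 36 tested, 15 fell and 1 rose in batch 1, 15 fell and 5 rose in batch 2, and 11 fell and 1 rose in both. The shares over all probes were 3.7% lower and 2.26% higher, 10.5% and 9.53%, and 2.75% and 1.73%. In batch 2, 2 members rose without doxorubicin replicate 2. The median L2FC was -0.48 and -0.43, and leaving out any 1 well gave 13 to 15 and 12 to 16 fallen members. Ass1, the argininosuccinate synthase of the urea cycle, had 76.3, 63.5 and 63.8 CPM with doxorubicin and 160, 178 and 130 with vehicle in batch 1, and 77.7, 73.2 and 77.4 against 259 to 352 (median 336) in batch 2. All doxorubicin wells were lower, and L2FC was -1.20 ± 0.15 (adjusted p = 1.09e-08) in batch 1 and -2.05 ± 0.13 (adjusted p = 1.05e-22) in batch 2. Cps1, which makes carbamoyl phosphate for the same cycle, had 124, 134 and 134 CPM against 365, 307 and 279 in batch 1 and 79.0, 122 and 103 against 234 to 331 (median 293) in batch 2, and L2FC was -1.28 ± 0.20 (adjusted p = 1.94e-06) in batch 1 and -1.49 ± 0.21 (adjusted p = 2.71e-08) in batch 2. The transaminases Gpt and Tat fell with L2FC of -1.22 and -1.80 and -0.92 and -1.12.

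Pck1, the enzyme that controls gluconeogenesis, was the 1 member that rose in both batches, with 12.6, 15.2 and 13.2 CPM against 3.84, 6.27 and 3.25 in batch 1 and 17.6, 12.4 and 12.6 against 2.68 to 6.0 (median 3.7) in batch 2. It was higher in each doxorubicin well, and L2FC was 1.64 ± 0.30 (adjusted p = 3.26e-05) in batch 1 and 1.79 ± 0.25 (adjusted p = 4.81e-08) in batch 2. Fbp1, also of gluconeogenesis, and Slc2a2, the hepatic glucose transporter, fell with L2FC of -0.63 and -0.44 and -0.76 and -0.54. Etnppl, which breaks down phosphoethanolamine, had 1.04, 1.26 and 0.167 CPM against 8.14, 9.23 and 6.82 in batch 1 and 0.592, 0.61 and 0.446 against 7.43 to 16.5 (median 9.74) in batch 2, and L2FC was -3.20 ± 0.48 (adjusted p = 5.79e-07) in batch 1 and -4.26 ± 0.43 (adjusted p = 6.79e-13) in batch 2.

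Drug metabolising enzymes moved in both directions. Of 32 tested cytochromes P450 of families 1 to 4, 6 rose and 4 fell in batch 1, 13 rose and 7 fell in batch 2, and 6 rose and 3 fell in both. All probes rose and fell in shares of 2.26% and 3.7% in batch 1, 9.53% and 10.5% in batch 2, and 1.73% and 2.75% in both. Those that rose in both were Cyp2a3, Cyp2b2, Cyp2b3, Cyp2c13, Cyp2c22 and Cyp3a9, and those that fell were Cyp1a1, Cyp1a2 and Cyp2d1. Cyp2b3 had 49.1, 71.7 and 110 CPM with doxorubicin and 17.4, 25.4 and 26.8 with vehicle in batch 1, and 47.3, 26.8 and 36.3 against 4.98 to 7.45 (median 6.87) in batch 2. It was higher in every doxorubicin well, and L2FC was 1.74 ± 0.21 (adjusted p = 2.29e-09) in batch 1 and 2.5 ± 0.27 (adjusted p = 1.01e-11) in batch 2. Cyp3a9 had 92, 81.4 and 64.9 CPM against 34.1, 35.7 and 29.1 in batch 1 and 70.7, 62.4 and 65.6 against 10.7 to 16.5 (median 12.7) in batch 2, and L2FC was 1.27 ± 0.16 (adjusted p = 2.77e-09) in batch 1 and 2.33 ± 0.16 (adjusted p = 7.00e-21) in batch 2. Cyp1a2, a classical target of the aryl hydrocarbon receptor, fell with L2FC of -1.37 and -1.51, and Cyp1a1 with -1.76 and -0.94. Members of one P450 family are similar in sequence, and how far their probes tell them apart is unknown.

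Some P450s and conjugating enzymes differed between the batches. Cyp2c13 had 59.2, 113 and 159 CPM against 31.0, 59.2 and 53.3 in batch 1, where the groups overlapped, and 79.9, 57.8 and 54.3 against 3.29 to 6.72 (median 4.31) in batch 2. Its L2FC was 1.22 ± 0.27 and 3.82 ± 0.31, with a difference of 2.59 ± 0.42 (adjusted p = 1.86e-05), and the call of batch 1 was lost without doxorubicin replicate 3 (adjusted p = 0.0636). Cyp2c11, a P450 typical of the male rat liver, had 79.9, 68.9 and 68.9 CPM against 156, 165 and 131 in batch 1 and 101, 73.1 and 85.5 against 37.3 to 55.4 (median 46.6) in batch 2. Its wells were all below vehicle in batch 1 and all above it in batch 2, with L2FC of -1.05 ± 0.18 and 0.89 ± 0.21 and a difference of 1.94 ± 0.29 (adjusted p = 3.60e-06). The ST assay, with the same probe, did not call the increase in batch 2 (L2FC 0.56, adjusted p = 0.0533). Sult2a2, a sulfotransferase of steroids and bile acids, had L2FC of -0.91 ± 0.28 and 1.68 ± 0.32 and a difference of 2.58 ± 0.46 (adjusted p = 1.47e-04), and its call in batch 1 was lost without any well other than vehicle replicate 1 (adjusted p of up to 0.59). Of its other 2 probes, neither was called in batch 1 (L2FC -1.03 and -0.53) and 1 was in batch 2 (1.48 and 0.71). The ST assay did not call Sult2a2 in batch 1 (L2FC -0.02, adjusted p = 0.994). Bco1, which splits beta-carotene, had L2FC of -0.52 ± 0.15 and 0.99 ± 0.24 and a difference of 1.5 ± 0.28 (adjusted p = 2.77e-04), its call in batch 1 being lost without doxorubicin replicate 1 or 2 or vehicle replicate 2 or 3 (adjusted p of up to 0.146). These 4 differences held without doxorubicin replicate 1 of batch 2 (adjusted p = 4.28e-04, 1.39e-04, 0.00516 and 0.00606).

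Enzymes that reduce and export anthracyclines rose in part. Of 17 tested, 3 rose and none fell in both batches, where 1.73% of all probes rose and 2.75% fell. Nqo1, a quinone reductase and standard target of the oxidative stress factor NRF2, had 132, 120 and 131 CPM with doxorubicin and 65.7, 61.1 and 53 with vehicle in batch 1, and 364, 231 and 212 against 54.5 to 64.5 (median 58.8) in batch 2. It was higher in every doxorubicin well and highest in replicate 1 of batch 2, and L2FC was 1.09 ± 0.18 (adjusted p = 5.93e-06) in batch 1 and 2.18 ± 0.15 (adjusted p = 6.87e-20) in batch 2. The rise was larger in batch 2 (difference 1.09 ± 0.24, adjusted p = 0.00475). Without that replicate the difference was 0.80 and no longer called (adjusted p = 0.183). Akr1b8, an aldo-keto reductase, had 62.6, 59.8 and 58.9 CPM against 25.9, 20.6 and 24.7 in batch 1 and 182, 111 and 116 against 29.0 to 39.3 (median 36.2) in batch 2, and L2FC was 1.34 ± 0.17 (adjusted p = 6.03e-09) in batch 1 and 1.94 ± 0.21 (adjusted p = 8.98e-12) in batch 2, while its other probe gave 1.36 and 2.22. Abcc2, a canalicular pump that exports anthracyclines and bile acid conjugates, rose with L2FC of 0.56 and 1.04, the call of batch 1 being lost without doxorubicin replicate 1 or vehicle replicate 2 or 3 (adjusted p of up to 0.181). Cbr1, a carbonyl reductase that turns doxorubicin into its alcohol, had L2FC of 0.14 and 0.34 and was called in batch 2 and not in batch 1, with no called difference between them.

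Of 24 tested NRF2 antioxidant genes, Nqo1 and Nfe2l2, which encodes NRF2 itself, rose in both batches and none fell in both, where 1.73% of all probes rose and 2.75% fell. Nfe2l2 had 860, 1020 and 923 CPM against 634, 593 and 659 in batch 1 and 1050, 994 and 956 against 408 to 527 (median 468) in batch 2. No well overlapped, with L2FC of 0.57 ± 0.18 and 1.10 ± 0.16, and the adjusted p of batch 1, 0.0396, rose above the threshold without any 1 of the 6 wells (up to 0.165). Hmox1, haem oxygenase, another NRF2 target, was called lower in batch 2 alone (L2FC 0.12 and -1.41), a difference between batches of -1.54 ± 0.34 (adjusted p = 0.00473, and 0.0747 without doxorubicin replicate 1 of batch 2). Among 25 transferases, 4 rose and 3 fell in both, where 1.73% of all probes rose and 2.75% fell. Gsta5 and Gsta2, alpha class glutathione transferases, rose with L2FC of 1.78 and 1.79 and 1.59 and 1.54. Gsta2 had 71.1, 88.7 and 102 CPM against 29.3, 28.4 and 29.4 in batch 1 and 79.7, 58.7 and 53.6 against 15.0 to 30.1 (median 20.6) in batch 2, apart in both. Gstp1, the pi class enzyme that is low in normal hepatocytes, had 237, 199 and 200 CPM against 127, 113 and 106 in batch 1 and 875, 662 and 717 against 211 to 287 (median 258) in batch 2, and L2FC was 0.88 ± 0.20 (adjusted p = 0.00176) in batch 1 and 1.57 ± 0.19 (adjusted p = 2.70e-10) in batch 2. By ST the adjusted p of Gstp1 was 0.0602 in batch 1. For Gstm2, of the mu class, L2FC was -0.71 ± 0.14 (adjusted p = 2.45e-04) in batch 1 and -1.25 ± 0.12 (adjusted p = 1.05e-13) in batch 2, while its other probe was called in batch 2 and not in batch 1 (-1.09 and -0.96).

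Of 41 hepatocyte transcription factors and nuclear receptors, none rose and 3 fell in both batches, where 1.73% of all probes rose and 2.75% fell. Nr1i2, the gene of the pregnane X receptor that senses drugs, had 62.3, 72.3 and 73.3 CPM against 120, 132 and 127 in batch 1 and 86.8, 70.5 and 69.3 against 120 to 144 (median 129) in batch 2. It was lower in each doxorubicin well, and L2FC was -0.87 ± 0.16 (adjusted p = 4.35e-05) in batch 1 and -0.79 ± 0.16 (adjusted p = 1.23e-04) in batch 2. Ppara, the nuclear receptor of fatty acid oxidation, had 18.0, 16.9 and 17.6 CPM against 28.3, 36.9 and 30.1 in batch 1 and 16.1, 30.2 and 25.1 against 64.9 to 83.2 (median 74.2) in batch 2, with L2FC of -0.86 ± 0.28 (adjusted p = 0.0475) and -1.65 ± 0.25 (adjusted p = 1.55e-07). Its call in batch 1 was lost without any 1 of the 6 wells, with an adjusted p of up to 0.19 without vehicle replicate 2. The ST probes of Nr1i2 and Ppara were not called in batch 1 (L2FC -0.45 and -0.27, adjusted p = 0.294 and 0.776). Hnf4a, the factor that maintains hepatocyte identity, had 216, 201 and 200 CPM against 192, 218 and 162 in batch 1 and 226, 233 and 241 against 150 to 235 (median 191) in batch 2. It overlapped vehicle in both batches and was not called (L2FC 0.11 ± 0.19, adjusted p = 0.849, and 0.30 ± 0.14, adjusted p = 0.115), though it was called higher in batch 2 against the vehicle wells of the same plate (L2FC 0.52, adjusted p = 0.0117), by total counts (0.37, adjusted p = 0.0412) and without vehicle replicate 6 (0.37, adjusted p = 0.0472). Of 15 genes of bile acid synthesis and transport, Slco1a1, an uptake transporter, and Acox2, a peroxisomal oxidase of bile acid precursors, fell in both batches with L2FC of -2.18 and -1.48 and -1.25 and -0.93. Abcc2, described above, was the 1 member that rose in both, where 1.73% of all probes rose and 2.75% fell.

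Hepatokines and growth factor signals included some of the clearer changes. Of 21 tested, 4 rose and 3 fell in both batches, where 1.73% of all probes rose and 2.75% fell. Fst, follistatin, which binds activins, had 13.1, 13.9 and 14.7 CPM against 3.02, 3.48 and 2.44 in batch 1 and 10.5, 8.69 and 9.37 against 0.866 to 4.69 (median 3.65) in batch 2, apart in both, and L2FC was 2.22 ± 0.29 (adjusted p = 1.10e-08) in batch 1 and 1.51 ± 0.28 (adjusted p = 1.87e-05) in batch 2. Socs3, an inhibitor of cytokine signalling through STAT3, rose with L2FC of 1.59 ± 0.33 (adjusted p = 4.15e-04) and 1.33 ± 0.29 (adjusted p = 2.22e-04). Igfbp3, which binds insulin-like growth factors and is made by the non-parenchymal cells of the liver, fell with L2FC of -1.56 and -1.63, but its wells overlapped in batch 2. The call of batch 1 was lost without doxorubicin or vehicle replicate 2 (adjusted p of up to 0.112), and that of batch 2 without doxorubicin replicate 1 or 2 or vehicle replicate 4, 5 or 6 (up to 0.307). The latter was also lost with DESeq2 (0.0612), total counts (0.0536), no filter (0.0809), the doxorubicin and vehicle wells alone (0.0722) and the vehicle wells of the same plate (0.325). Of 31 immediate early genes, 4 rose and 1 fell in batch 1, 4 rose and 8 fell in batch 2, and 2 rose and 1 fell in both, where 1.73% and 2.75% of all probes did. Over all probes 2.26% rose and 3.7% fell in batch 1, and 9.53% and 10.5% in batch 2. With 1 well left out, 1 to 5 rose in batch 1, the 1 being without vehicle replicate 3, and 4 to 8 fell in batch 2, the 4 being without doxorubicin replicate 1. Id1, an inhibitor of helix-loop-helix factors induced by BMP signals, had 296, 217 and 226 CPM against 112, 99.1 and 123 in batch 1 and 357, 305 and 325 against 53.7 to 84.9 (median 63.2) in batch 2. Its rise was larger in batch 2, with L2FC of 1.14 ± 0.16 and 2.34 ± 0.17 and a difference of 1.19 ± 0.24 (adjusted p = 0.00139). Id2 rose with L2FC of 0.62 and 1.26, its call in batch 1 being lost without vehicle replicate 3 (adjusted p = 0.0789). Dusp1, a phosphatase of stress kinases, had 398, 305 and 316 CPM against 604, 663 and 482 in batch 1 and 427, 499 and 526 against 862 to 1180 (median 1020) in batch 2, and fell with L2FC of -0.78 ± 0.16 and -1.07 ± 0.13.

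**Figure D5:**
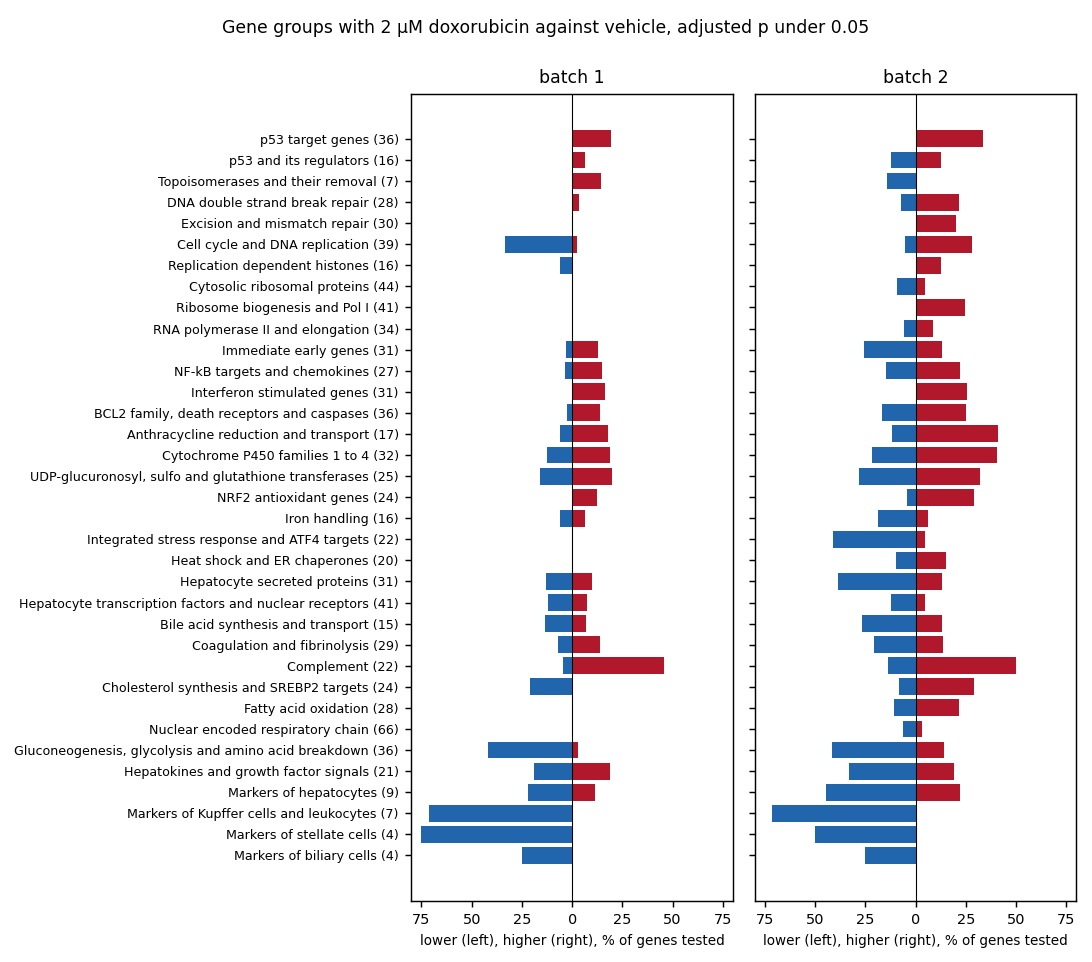
Share of the tested genes of each list that were called higher (red, to the right) or lower (blue, to the left) with 2 µM doxorubicin against vehicle, in percent, in batch 1 and batch 2, with the number of genes tested in brackets. Complement has the largest share of increases in both batches, at 10 and 11 of 22, and the Kupffer cell markers have 5 of 7 lower in both.

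Lists on translation, protein folding and energy held no gene called with one sign in both batches. In batch 2, 10 of 41 genes of ribosome biogenesis rose and none fell, against none of either in batch 1, and 2 to 9 rose when 1 well was left out, the 2 being without doxorubicin replicate 1. Of 22 genes of the integrated stress response and its factor ATF4, 1 rose and 9 fell in batch 2, or 5 without doxorubicin replicate 1, and none was called in batch 1. The 20 chaperones, 44 cytosolic ribosomal proteins, 66 nuclear encoded genes of the respiratory chain, 34 of RNA polymerase II and elongation and 28 of fatty acid oxidation had no call in batch 1 and 5, 6, 6, 5 and 9 in batch 2, with no called difference between batches. These counts are to be read against the 9.53% of all probes that were higher and the 10.5% that were lower in batch 2. Without doxorubicin replicate 1, the ribosomal proteins had 1 higher and none lower and the respiratory chain none higher and 2 lower. Of those in fatty acid oxidation, Cyp4a1, a target of PPARalpha, had L2FC of -0.09 and 2.16, and Cpt1a, which admits fatty acids to mitochondria, had 0.59 and 1.52 in batches 1 and 2.

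The largest increases were of genes with varied roles. Havcr1, the gene of kidney injury molecule 1, a receptor for dying cells, had 20.1, 22.1 and 17.1 CPM with doxorubicin and 1.98, 3.14 and 4.71 with vehicle in batch 1, and 19.1, 15.4 and 14.3 against 0.866 to 1.79 (median 1.16) in batch 2. The groups did not come near each other, and L2FC was 2.62 ± 0.34 (adjusted p = 1.06e-08) in batch 1 and 3.73 ± 0.37 (adjusted p = 3.53e-13) in batch 2. Aldh1a1, which makes retinoic acid, had 392, 396 and 392 CPM against 112, 67.2 and 113 in batch 1 and 983, 457 and 620 against 34.4 to 78.9 (median 47.8) in batch 2, again highest in replicate 1, and L2FC was 2.01 ± 0.39 (adjusted p = 1.14e-04) in batch 1 and 3.75 ± 0.34 (adjusted p = 1.11e-14) in batch 2. Car3, a carbonic anhydrase typical of muscle, fat and liver, had 252, 236 and 287 CPM against 57.6, 87.8 and 63.4 in batch 1 and 223, 213 and 200 against 16.7 to 25.6 (median 18.2) in batch 2. Its vehicle level was lower in batch 2, and L2FC was 1.89 ± 0.19 (adjusted p = 1.08e-12) in batch 1 and 3.4 ± 0.20 (adjusted p = 8.92e-24) in batch 2, a difference of 1.5 ± 0.28 (adjusted p = 2.67e-04). Pln, phospholamban, which restrains the calcium pump of the sarcoplasmic reticulum, had 14.5, 17.2 and 16.2 CPM against 3.14, 2.09 and 3.57 in batch 1 and 38.2, 27.5 and 22.5 against 3.47 to 4.47 (median 3.72) in batch 2, and L2FC was 2.43 ± 0.40 (adjusted p = 5.69e-06) in batch 1 and 2.92 ± 0.35 (adjusted p = 2.33e-10) in batch 2.

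Dhrs7l1, a gene of the short chain dehydrogenases, had 349, 435 and 480 CPM against 111, 150 and 134 in batch 1 and 658, 611 and 561 against 44.7 to 50.8 (median 47.6) in batch 2. It rose in each well, with L2FC of 1.68 ± 0.18 and 3.67 ± 0.23 and a difference of 1.98 ± 0.31 (adjusted p = 8.27e-06). Slc4a11, a membrane transporter, had 11.1, 13.5 and 12.2 CPM against 3.49, 1.74 and 3.57 in batch 1 and 35.1, 33.6 and 28.6 against 2.08 to 2.86 (median 2.49) in batch 2, and L2FC was 2.04 ± 0.30 (adjusted p = 3.02e-07) in batch 1 and 3.71 ± 0.26 (adjusted p = 9.99e-20) in batch 2. Plagl1, a zinc finger factor that arrests growth, had 5.88, 2.53 and 4.18 CPM against 1.28, 0.697 and 0.325 in batch 1 and 4.29, 2.44 and 2.83 against 0 to 0.572 (median 0.215) in batch 2, and L2FC was 2.31 ± 0.49 (adjusted p = 6.03e-04) in batch 1 and 3.48 ± 0.52 (adjusted p = 1.36e-07) in batch 2. Stom, stomatin, a membrane scaffold protein, rose with L2FC of 1.89 ± 0.29 and 2.38 ± 0.24, and Cyp2b2, the relative of Cyp2b3, with 1.60 ± 0.36 and 2.56 ± 0.34. Pcdh17, a protocadherin, was the 1 probe called in both batches with no vehicle well above 3 counts. It had 19 counts in the doxorubicin wells of batch 1 against 0, at least 6.6-fold higher, and 14 against 2 in batch 2, a ratio of 14.2 (95% counting interval 3.25 to 128), a call that was lost without doxorubicin replicate 1 (adjusted p = 0.129).

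Against 0.08 µM, a comparison that uses no vehicle wells, 2 µM doxorubicin gave 120 probes (1.12%) that were higher and 238 (2.23%) that were lower in both batches, and 93 and 200 without both 0.08 µM wells that stood apart. Batch 1 alone gave 764 calls, and 509 without doxorubicin replicate 1 and 519 without replicate 3 of 0.08 µM. Of the probes called against vehicle, 103 of the 185 higher and 187 of the 294 lower were also called in the same direction against 0.08 µM in both batches. Both comparisons use the same 2 µM wells, so their calls are not independent. The fit of 0.08 µM against the same vehicle wells called 0 probes (0.0%) in batch 1 by edgeR, where 158 had an unadjusted p under 0.05. In batch 2 it called 1012 (9.47%), and 181 without the well that stood apart.

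Among p53 targets, Cdkn1a overlapped vehicle at 0.08 µM, whereas Mdm2 lay above every vehicle well in both batches without passing the test (L2FC 0.44 in batch 2, adjusted p = 0.0531). Cdkn1a had 7.2, 5.96 and 4.78 CPM in batch 1 and 8.43, 7.22 and 8.85 in batch 2 at the lower concentration, and 2 µM was higher by L2FC of 1.25 (adjusted p = 0.00147) and 1.54 (adjusted p = 1.44e-07, and 1.60e-05 without the well that stood apart). Mdm2 had 92.7, 87.6 and 98.1 CPM and 97.1, 116 and 80.8, and 2 µM was higher by 0.82 (adjusted p = 0.00188) and 1.04 (adjusted p = 1.51e-05, and 1.76e-05 without that well). Without the well that stood apart in batch 1, the adjusted p of that batch was 0.0187 for Cdkn1a and 0.00632 for Mdm2. In all, 6 of the 36 p53 targets were called higher at 2 µM than at 0.08 µM in both batches and none lower, and 5 were higher without both wells that stood apart. The macrophage gene Ctss had 30.4, 24.3 and 24.4 CPM at 0.08 µM in batch 1 and 7.05, 5.83 and 15.8 in batch 2, in which the middle value is the well that stood apart in that batch, and the L2FC of 2 µM over 0.08 µM was -4.01 and -4.69 (adjusted p = 3.24e-14 and 5.42e-10, and 1.68e-10 in batch 2 without it). All 5 macrophage markers that fell against vehicle were also lower at 2 µM than at 0.08 µM in both batches, also without both wells.

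Other genes had also moved at 0.08 µM in batch 2. Cyp2b3 had 22.1, 18.0 and 28.5 CPM at 0.08 µM in batch 1 and 18.4, 62.7 and 9.01 in batch 2, and the difference from 2 µM was 1.76 (adjusted p = 1.24e-09) and 0.28 (adjusted p = 0.774), but 1.42 in batch 2 without the well that stood apart (adjusted p = 7.57e-04). Cyp2c13 had 36.0, 27.7 and 61.1 CPM and 28.5, 82.6 and 15.0, with differences of 1.42 (adjusted p = 7.81e-05) and 0.60 (adjusted p = 0.422), the latter 1.55 without that well (adjusted p = 0.00207). The middle value of batch 2 is that well for each gene. Mcm5 had 5.69, 6.83 and 4.43 CPM at 0.08 µM in batch 1 and 8.13, 19.0 and 7.08 in batch 2, and 2 µM passed the test against it in neither batch (L2FC -0.42, adjusted p = 0.447, and -0.49, adjusted p = 0.62), nor in batch 2 without that well (adjusted p = 0.973). A p above the threshold does not show that the concentrations act alike.

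Against the mean of the other 13 chemicals at their higher concentrations, 1912 of 10584 probes (18.1%) were higher and 1624 (15.3%) lower with 2 µM doxorubicin in both batches. Of the probes called against vehicle, 162 of the 185 higher were also higher in this contrast and 2 lower, and 166 of the 294 lower were also lower and 21 higher. The 2 µM wells are again shared by the comparisons. By total counts, batch 2 of this contrast had 3187 higher and 1963 lower calls in place of 2695 and 2522. A chemical that lowers a gene by itself raises the value for doxorubicin, so the contrast is with these 13 treatments and not with untreated cells.

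Complement stood highest among the lists here, with 19 of 22 members higher and 1 lower in both batches and a median L2FC of 1.37 and 1.56. For coagulation genes 19 of 29 were higher and 1 lower, with a median of 0.56 and 0.52. Of the p53 targets 11 were higher and 7 lower. Mdm2 differed by 0.65 (adjusted p = 2.79e-05) and 0.77 (adjusted p = 8.73e-08), and Cdkn1a by 0.84 (adjusted p = 2.73e-04) and 0.74 (adjusted p = 7.93e-06). Among fatty acid oxidation genes 18 of 28 were lower and 1 higher, while against vehicle none of them was called with one sign in both batches.

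The probes that were highest against the 13 chemicals and also rose against vehicle were the unnamed locus LOC100910973, Calml4, Car3, Cxcl3, Pln and Ldhd. Calml4, a calmodulin-like gene, had 79.6, 69.1 and 63.3 CPM with doxorubicin and 37.3, 34.3 and 32.7 with vehicle in batch 1, and 116, 81.5 and 82.6 against 15.4 to 23.3 (median 21.4) in batch 2. It was 3.93 and 5.10 higher on the log2 scale than the 13 chemicals. Ldhd, a mitochondrial dehydrogenase of D-lactate, was 3.47 and 3.84 higher, with L2FC against vehicle of 0.79 and 0.85. LOC100910973 was 3.95 and 5.34 higher, with L2FC against vehicle of 1.38 and 2.26. The lowest were Cd200r1l, Ednra, Cd4, Ifitm1, AABR07024139.1 and Abhd15. Against the 13 chemicals Ednra had an L2FC of -6.05 and -5.29 (adjusted p = 9.29e-22 and 1.03e-10). Ifitm1, an interferon inducible membrane protein, had 1 count in the doxorubicin wells of batch 1 against 35 with vehicle, 33.6-fold lower (interval 5.65 to 1360), and 0 in batch 2 against 64, at least 10.5-fold lower in the latter. AABR07024139.1, a clone-based gene model, had 2 counts against 49 in batch 1, 23.5-fold lower (6.17 to 200), and 0 against 47 in batch 2, at least 7.74-fold lower. Abhd15, which takes part in the insulin control of fat breakdown, had 2 counts in the doxorubicin wells of batch 1 against 22 with vehicle, 10.6-fold lower (2.59 to 92.6), and 1 against 36 in batch 2, 17.8-fold lower (2.99 to 722), and its call in batch 1 was lost without doxorubicin replicate 1 or vehicle replicate 3 (adjusted p = 0.057 and 0.067). For the summed endothelial markers, the median of each of the 13 chemicals was above every doxorubicin well in both batches, and for the Kupffer cell markers this held for 12 of 13 in batch 1 and 11 of 13 in batch 2, valproic acid having the lowest median at 32.0 and 28.5 CPM. For the stellate cell markers it held for 7 of 13 in batch 1 and 2 of 13 in batch 2, and the median with caffeine, at 102 and 53.5 CPM, was below every doxorubicin well.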

How the data were processed

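Hepatocyte lysates were read by TempO-Seq without RNA extraction. The authors aligned reads to the rat genome (rn6) with STAR 2.5.3a, allowing 2 mismatches, and deposited raw counts per probe, with no normalization. The 372 libraries comprise 186 wells per assay, and wells were grouped by their labels. Probes with a mean of at least 10 counts over all 186 wells were tested by edgeR 4.0.16 (TMM, quasi-likelihood F test, all treatments of a batch in 1 fit), with Benjamini-Hochberg adjustment over all tested probes and a threshold of 0.05. An additive fit over both batches with the batch as a term, and an interaction of batch and treatment, were also fitted. In the contrast with the 13 other chemicals, 72 and 58 probes at 0 in all wells of 1 of them were left out in batches 1 and 2. A gene with several probes is given by the probe with the highest mean count. Bounds use 3 counts over the group, intervals are exact at 95%.

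The wells, gene lists and tests were chosen with earlier results of these data known. Named genes are the 12 largest rising and falling probes called in both batches without overlap, a fixed set of p53, topoisomerase and hepatocyte genes, up to 4 members of each of 36 lists, the 6 smallest interaction p among probes of opposite sign, up to 6 with no vehicle well above 3 counts, and the 6 rising and 6 falling probes farthest from the other chemicals. Other list members were chosen after their values were seen. Some genes that the rule names are not reported here. Counts were simulated for the doxorubicin and vehicle wells alone, with 200 changed probes. A fit of those wells alone recovered 81% of 2-fold and 98% of 4-fold changes in batch 1, and 88% and 99% in batch 2. Of its 193 and 198 calls, 14 and 11 were false. The main fits hold all wells of a batch, so these rates are not theirs. Promoters come from RefSeq (GRCr8), for 7543 of 10180 tested symbols. Alternatives were other size factors, DESeq2 1.42.0, no filter, other samples in the fit and leaving out each well.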

Additional observations from a re-analysis of the deposited data

Results flagged for a closer look

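Among the 108 named genes, 7 had a vehicle well of batch 2 set apart from the other 5 by Dixon's criterion, which chance does for about 1 in 20. The well apart had 61.7 CPM for Mdm2, 52.2 for Gdf15, 647 for Bax, 4.57 for Plau, 6.42 for Lyz2, 5.89 for Sult2a2 and 0.286 for Pcdh17.

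For 16 of the 108 named genes the response to 2 µM doxorubicin differed between the batches by the interaction test, which called 1.28% of all probes. The L2FC of batch 2 minus that of batch 1 was 1.66 for Slc4a11, 1.98 for Dhrs7l1, 1.5 for Car3, 1.19 for Id1, 1.09 for Nqo1, 2.59 for Cyp2c13, 1.05 for Cyp3a9 and 0.97 for C4bpb, all of which rose in both batches and more in batch 2. It was 1.17 for Calml4, which did so too, and -0.86 for Ass1, which fell in both and more in batch 2. For Fasn (1.26), Cyp2c11 (1.94), Sult2a2 (2.58), Bco1 (1.5), Mcm5 (2.47) and Mcm6 (2.00) the gene was called lower in batch 1 and higher in batch 2. These 6 were named for the smallest interaction p among probes of opposite sign, so that choice set their calls here. In the 15 fits that each leave out 1 well, the difference was called in 4 for C4bpb, 5 for Calml4, 12 for Slc4a11 and 14 each for Nqo1, Mcm6 and Ass1, with an adjusted p of up to 0.124, 0.314, 0.122, 0.183, 0.0909 and 0.053, and in all 15 for the other 10. Against the vehicle wells of the same plate, that of Ass1 lost its call (-0.69, adjusted p = 0.053). Batch, rat, library preparation and sequencing cannot be told apart, and the cause was not tested.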

How the results depend on the processing

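With DESeq2, median ratio size factors, total counts, no filter, a fit of the doxorubicin and vehicle wells alone or vehicle wells of the same plate, 159 to 291 probes were higher and 278 to 373 lower in both batches, and 406 to 470 of the 479 main calls were kept. DESeq2 kept 202 of 204 called values of named genes. Of 103 in batch 2, vehicle wells of the same plate lost those of Rsad2 (adjusted p = 0.0744), Igfbp3 (0.325), Spp1 (0.054) and Mcm6 (0.051). In batch 1, Bax (0.0207) and Top2a (0.0221) were called with only doxorubicin and vehicle wells, Ccng1 (2.82e-04) with no filter and Alb (0.0332) by total counts, whereas calls were lost by Rsad2 with DESeq2 (0.118), by Rsad2 (0.0604), Abcc2 (0.0632) and Nfe2l2 (0.171) by total counts, by Apoh (0.0516), F10 (0.0558), Mcm5 (0.0526) and Ppara (0.0544) with median ratio size factors, by Bco1 (0.182), Birc3 (0.295), Mcm5 (0.119) and Tf (0.0536) with no filter, and by Rsad2 (0.0863), Sult2a2 (0.098) and Birc3 (0.0508) with only doxorubicin and vehicle wells. With an absolute L2FC of at least 1, the calls against vehicle were 310 and 567 (WT, batches 1 and 2), 124 and 194 (ST) and 409 in the additive fit, those against 0.08 µM were 338 and 261, and those against the other chemicals 990 and 1294. A fit of only doxorubicin and vehicle wells gave 344 ST calls in batch 1. The additive fit, which takes the batch as a block, called 2026, and 1509 without the block. Leaving out 1 well gave 455 to 555 and 1338 to 2218 WT calls, 172 to 196 and 471 to 610 ST calls, 1589 to 2049 in the additive fit and 38 to 160 interactions. For 2 against 0.08 µM it gave 509 to 681 and 361 to 468, against the other chemicals 3362 to 3473 and 4209 to 4327, and for 0.08 µM against vehicle 0 to 0 and 181 to 1073. Among named genes the L2FC changed sign for Ccng1 in batch 2 (-0.29 with vehicle of the same plate, and -0.10 to 0.58 leaving out 1 well, the lowest without doxorubicin replicate 2), Top2a in batch 2 (-0.16 to 0.60, the lowest without doxorubicin replicate 1) and Top1 in batch 1 (-0.13 to 0.00, the highest without vehicle replicate 3), none of them called. The cause was not tested. Replicate numbers follow the order of samples and pair no wells, so no other paired analysis was possible. Depth limits the markers of other cell types: 7 of 13 for Kupffer cells and leukocytes, 4 of 11 for stellate cells and 1 of 12 for endothelial cells passed the filter.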
